A study of Homo sapiens with 9 samples.

Results

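HIF-1α calls were examined along 1.4 Mb of chromosome band 2p24 that holds NBAS, DDX1 and MYCN, in SK-N-BE(2), an established human neuroblastoma cell line. Members were all peak summits on chromosome 2 from 15.3 to 16.7 Mb of hg19, 176 of the 16463 summits in 6 lists, a choice made by position and not by signal. Cells were kept for 48 hours in 21% oxygen, called normoxia, or in 1% oxygen, called hypoxia, and HIF-1α was immunoprecipitated from 3 libraries of each. The 3 input libraries are all labelled 21% oxygen. Both groups are the same cell line, with no other treatment named, and the labels do not say whether each library is its own culture. Any p-value below therefore reflects only how these libraries spread. Summits were assigned to NBAS (15.3 to 15.71 Mb), DDX1 (15.72 to 15.78 Mb), the gap to MYCN (15.78 to 16.07 Mb), MYCN (16.07 to 16.09 Mb) and the DNA downstream of MYCN (16.09 to 16.7 Mb).

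HIF-1α is the oxygen-regulated partner of HIF-1, which pairs with ARNT and binds a short core sequence in hypoxia response elements. MYCN encodes N-Myc, a helix-loop-helix transcription factor whose amplification marks aggressive neuroblastoma, and SK-N-BE(2) is known to carry many extra MYCN copies. DDX1, a DEAD-box RNA helicase, and NBAS, a protein of Golgi-to-ER vesicle transport first named for its amplification in neuroblastoma, lie beside MYCN and are amplified with it in some tumours. In an amplified stretch the control also gives many reads, so a peak is judged there against a high local background.

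The order of these genes was taken from RefSeq on GRCh38.p14. The protein-coding genes run NBAS, DDX1, MYCN and then CYRIA. There are 7 other entries between DDX1 and MYCN, among them the lncRNA genes MYCNUT and MYCNOS, and 7 between MYCN and CYRIA, of which 5 are lncRNA genes, GACAT3 among them. The RefSeq model of NBAS spans 782 kb and is longer than the segment used for it, so part of that gene lies outside the window. No hg19 annotation was used here, and distances from summits to gene starts are not given.

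The 250 bases before the RefSeq start of each gene are shown because called regions lay in all 3 gene segments. They are written 5′ to 3′ on the gene's own strand, from GRCh38.p14, a different build from the peak lists. Capitals mark a HIF core, ACGTG or GCGTG, on either strand. The NBAS stretch is chr2:15561335-15561584 on the minus strand, the DDX1 stretch chr2:15591618-15591867 on the plus strand and the MYCN stretch chr2:15940300-15940549 on the plus strand.
NBAS: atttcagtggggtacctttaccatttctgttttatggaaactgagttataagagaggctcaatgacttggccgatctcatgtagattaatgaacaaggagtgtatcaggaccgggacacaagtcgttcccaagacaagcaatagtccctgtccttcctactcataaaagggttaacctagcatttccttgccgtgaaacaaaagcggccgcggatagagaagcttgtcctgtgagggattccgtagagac
DDX1: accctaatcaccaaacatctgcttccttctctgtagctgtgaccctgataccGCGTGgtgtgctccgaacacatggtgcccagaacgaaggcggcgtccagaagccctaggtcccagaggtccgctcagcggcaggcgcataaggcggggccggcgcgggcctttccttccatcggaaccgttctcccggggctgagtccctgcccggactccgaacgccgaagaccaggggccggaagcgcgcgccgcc
MYCN: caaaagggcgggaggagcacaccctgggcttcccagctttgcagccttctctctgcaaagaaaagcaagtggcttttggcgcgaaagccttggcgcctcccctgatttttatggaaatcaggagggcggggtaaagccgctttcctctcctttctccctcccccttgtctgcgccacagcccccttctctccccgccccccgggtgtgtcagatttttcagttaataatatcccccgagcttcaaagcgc

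The DDX1 stretch held 1 core, GCGTG on the gene's own strand, which begins 198 bases before the start. The NBAS and MYCN stretches held none of these letters in this window. Among 35116 RefSeq promoter stretches of the same length, 43.2% held at least 1 core (ACGTG in 18.5%, GCGTG in 32.2%; a stretch can hold both). GC content was 45.6% before NBAS, 66% before DDX1 and 57.2% before MYCN, against a median of 58% over all stretches.

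Each library's peak list gives a fold, the reads at a summit plus 1 over the local background plus 1, and a −log10 p. Whole reads and the local background behind every summit were solved from these values. A summit was called amplified where its local background was at least 10 times the smallest in its list, the genome-wide background, and ordinary otherwise. The genome-wide background was 0.308, 0.283 and 0.294 reads in normoxia 1, 2 and 3 and 0.318, 0.92 and 0.886 reads in hypoxia 1, 2 and 3. It follows the fragment extension, 46 to 48 bp in the first 4 of these and 155 and 167 bp in hypoxia 2 and hypoxia 3. Per kb the libraries were of similar depth, 5.31 to 6.69 reads.

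The window split cleanly at the MYCN segment. The 13 ordinary summits had a local background of 1 to 5.3 times the genome-wide value, and the 163 amplified summits one of 98.8 to 201 times, with none between. All ordinary summits lay in NBAS, DDX1 and the gap, and all amplified summits lay in the MYCN segment or downstream of it. At the called sites of NBAS the background was 1.71, 2.62 and 1.69 times the genome-wide value in hypoxia 1, 2 and 3. At those of DDX1 it was 1.74 and 3.49 times in hypoxia 2 and 1.69 and 2.53 times in hypoxia 3. The local background was thus high at MYCN and not at the called sites of DDX1 or NBAS.

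**Figure D1:**
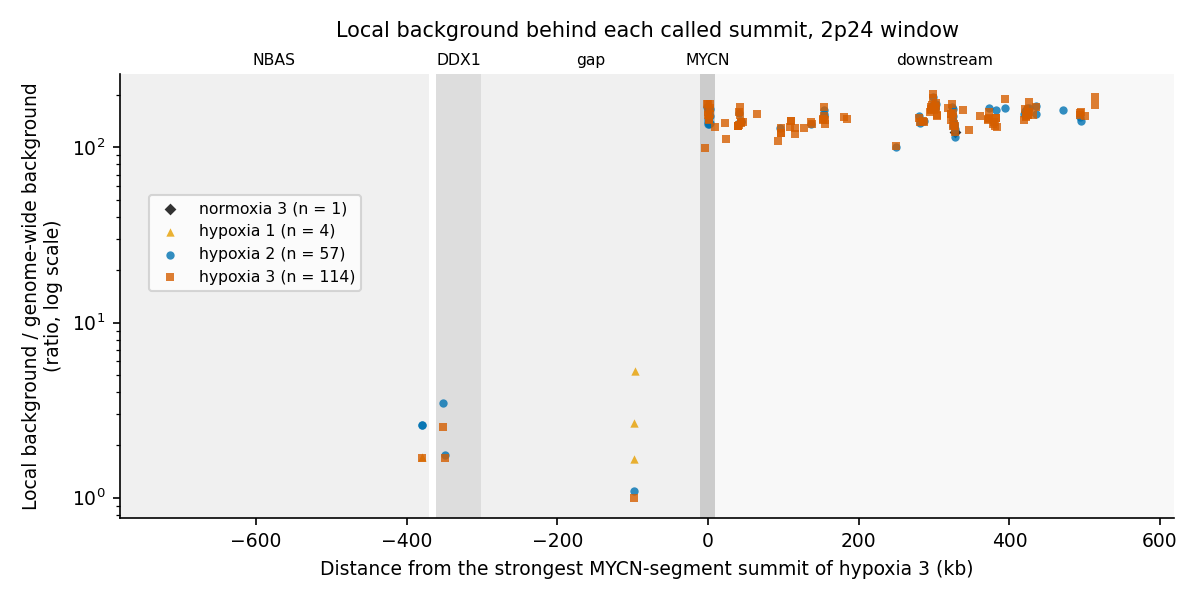
Local background over the genome-wide background of the list (ratio, log scale) for each summit, against distance in kb from the strongest MYCN-segment summit of hypoxia 3. Shaded bands are the segments and colours the libraries. Summits in NBAS, DDX1 and the gap lie between 1 and 5.3, those in MYCN and downstream between 98.8 and 201.

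The amplified stretch could be bracketed by its first and last calls. In hypoxia 3 the first amplified summit was at 16076617 and the last at 16594659, 518 kb apart. In hypoxia 2 they were at 16080057 and 16575536, 495 kb apart. The nearest ordinary summits before it were at 15983273 in hypoxia 3 and 15983295 in hypoxia 2, so the upstream edge fell in a stretch of 93.3 or 96.8 kb without calls. On the far side the next ordinary summits were at 17720282 in hypoxia 3 and 16994959 in hypoxia 2, which places that edge only within 1126 or 419 kb. Between calls the background of the stretch is not known. At the called summits it ran from 101 to 195 times the genome-wide value in hypoxia 2 and from 98.8 to 201 times in hypoxia 3. Its quartiles were 138, 151 and 167 times the genome-wide value in hypoxia 2 and 138, 150 and 160 times in hypoxia 3.

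Calls in the window were many in hypoxia 2 and hypoxia 3 and few elsewhere. Normoxia 1, 2 and 3 had 0, 0 and 1 summits, and hypoxia 1, 2 and 3 had 4, 57 and 114. On the log2(count + 1) scale hypoxia lay 4.68 above normoxia (5.01 ± 2.38 against 0.33 ± 0.58, SD, n = 3 each). The groups did not overlap, with p = 0.1 in a two-sided exact permutation test, which cannot go lower for groups of 3. Whole lists were likewise separate in length. The longest normoxia list, normoxia 3, held 157 summits genome-wide, while the shortest hypoxia list, hypoxia 1, held 1986. Window counts make no allowance for list length, so they do not show a gain particular to 2p24. Hypoxia 1, the hypoxia list with a short extension like those of normoxia, lay 1.99 above the normoxia mean, a comparison chosen after the data were seen and without a test. As a share of each list the window held 0.201%, 0.927% and 1.42% of summits in hypoxia 1, 2 and 3, and 0%, 0% and 0.637% in the corresponding normoxia lists. The mean shares were 0.849% ± 0.612 and 0.212% ± 0.368 (SD, n = 3 each, exact permutation p = 0.2), and here the groups overlapped. The means lay 0.636 percentage points apart. Leaving out hypoxia 3 made this 0.352, leaving out hypoxia 1 made it 0.96, and counting each interval once made it 0.322. Hypoxia 1 alone against the 3 normoxia lists turned the direction, at −0.0109 percentage points.

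The share of a list that was amplified and in the window differed between groups by less than the SD in hypoxia but by more than the SD in normoxia. Hypoxia libraries averaged 0.738% ± 0.69 and normoxia libraries 0.212% ± 0.368 (SD, n = 3 per group, p = 0.4 by exact permutation). These means lay 0.526 percentage points apart, which became 0.21 when hypoxia 3 was left out, 0.895 when hypoxia 1 was, and 0.237 with intervals counted once. Hypoxia 1 alone against normoxia again turned the direction, at −0.212 percentage points, since it held 0 amplified summits in the window. Summits with a background of at least 10 times the genome-wide one, anywhere in the genome, were also counted. They made up 7%, 1.12% and 1.95% of the lists of hypoxia 1, 2 and 3, and 52.3%, 4.55% and 5.1% of those of normoxia. In hypoxia 2 and hypoxia 3 the window held 52 of 69 and 110 of 157 of them. In normoxia 1, normoxia 2 and hypoxia 1 it held 0 of 45, 0 of 2 and 0 of 139, and in normoxia 3 it held 1 of 8. No other stretch of 1.4 Mb held more than 7 such summits in hypoxia 2 or 13 in hypoxia 3. The 13 lay on the contig chrUn_gl000226, which held 41 in hypoxia 1 at a median background of 119 times the genome-wide value. Whether such backgrounds outside the window mean extra copies was not tested.

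Ordinary summits of the window made up 0.201%, 0.0813% and 0.0498% of the lists of hypoxia 1, 2 and 3 and 0% of all normoxia lists. The mean difference of 0.111 percentage points (SD in hypoxia 0.08, n = 3 each, exact permutation p = 0.1, the smallest possible) was 0.0655 without hypoxia 1. The upper exact 95% bounds in normoxia 1, 2 and 3 were 4.2%, 8.04% and 2.32%, all far above the hypoxia shares. Normoxia lists are thus too short to show whether ordinary summits of the window were less frequent in them.

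**Figure D2:**
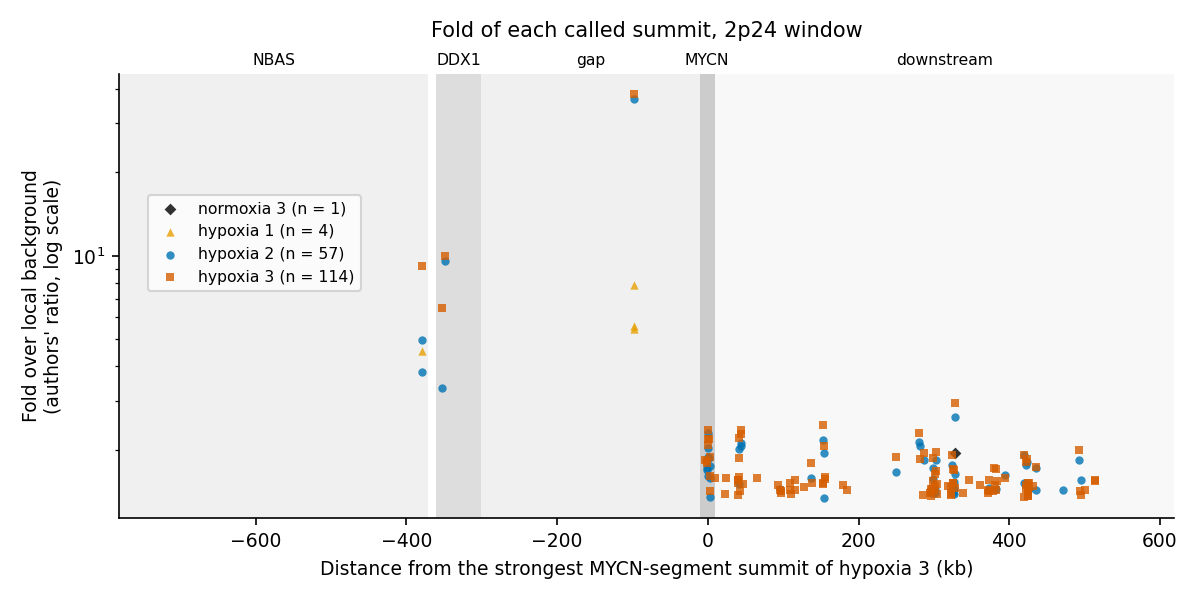
Fold over local background (the authors' ratio, log scale) for each summit, against distance in kb from the strongest MYCN-segment summit of hypoxia 3; colours are libraries and bands the segments. The gap site reaches 36.9 and 38.2 in hypoxia 2 and hypoxia 3, while amplified summits, limited by the read ceiling, stay at or below 2.94.

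Joined over all lists, intervals on ordinary background formed 4 regions in the window, and all 4 were called in hypoxia 2 and hypoxia 3. Over the whole genome, 44% of regions with a hypoxia call had one in 2 or more of these libraries, and 11.5% had one in each of the 3. The NBAS and gap regions were called in all 3. None of the 4 was called in normoxia, where 1.22% of such regions had a call.

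NBAS had 1 region, chr2:15701181-15701651, at the upper end of its segment. The summit of smallest p in hypoxia 1, 2 and 3 lay at 15701356, 15701335 and 15701413. Reads there were 6, 16 and 22 over backgrounds of 0.542, 2.41 and 1.5 reads, and the authors' fold was 4.54, 4.99 and 9.21. The 1 added to reads and background lowers the fold most at the smallest background, that of hypoxia 1. Folds of short-extension and long-extension lists are therefore not on the same scale. The hypoxia 1 call was close to that list's limit, with a −log10 q of 1.69 where the lowest in the list was 1.3. A second summit of hypoxia 2 in the same interval, at 15701531, had 12 reads and a fold of 3.82. At the backgrounds of the hypoxia lists, 1.69 to 2.62 times the genome-wide value, a call in a normoxia list would have needed 7 to 9 reads, more than the 6 that made one in hypoxia 1.

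DDX1 had 2 regions, both called in hypoxia 2 and hypoxia 3 and not in hypoxia 1. The stronger one, chr2:15731791-15732086, had summits 1 bp apart, at 15731941 and 15731942, with 24 reads in each list and folds of 9.6 and 10. Its −log10 q was 16.6 and 17.4. The weaker one, chr2:15728378-15728594, had 13 reads and a fold of 3.33 in hypoxia 2 and 20 reads and a fold of 6.47 in hypoxia 3. Its −log10 q in hypoxia 2 was 1.93, near the lowest in that list (1.31). At the backgrounds of hypoxia 2 and hypoxia 3, a call in hypoxia 1 would have needed 6 reads at the stronger region and 7 or 8 at the weaker one.

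The strongest site by fold lay in the gap between DDX1 and MYCN, at chr2:15982533-15983540. It had 73 reads in hypoxia 2 and 71 in hypoxia 3 over a background of 1.01 and 0.886 reads, and folds of 36.9 and 38.2. It ranked 125 of 6151 summits by fold in hypoxia 2 and 132 of 8039 in hypoxia 3. Hypoxia 1 split it into 3 summits within 409 bp, at 15983151, 15983260 and 15983365, with 9, 11 and 14 reads and folds of 5.43, 7.87 and 5.59. Their backgrounds were 0.843, 0.526 and 1.69 reads, and these folds too are not on the same scale as those of hypoxia 2 and hypoxia 3. The middle one lay 35 bp from the hypoxia 2 summit and 13 bp from that of hypoxia 3. At the backgrounds of the 3 hypoxia lists, 1 to 1.66 times the genome-wide value, a normoxia list would have needed 6 or 7 reads for a call there.

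MYCN showed a different kind of call, with many reads and a small fold. Its segment held 10 summits in hypoxia 2 and 11 in hypoxia 3, all amplified, and 0 in the other 4 lists. They formed 5 joined regions, 3 of them called in both libraries. The largest, chr2:16079676-16081828, was 1 interval of 2119 bp with 6 summits in hypoxia 2 and 1 of 2153 bp with 5 summits in hypoxia 3. Its strongest summits lay 4 bp apart, at 16080999 and 16080995.

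At this strongest MYCN summit hypoxia 2 had 289 reads over a background of 125, a fold of 2.3, and hypoxia 3 had 323 reads over 136, a fold of 2.36. Both libraries also called summits in the same interval at 16081698 and 16081706, with folds of 2.03 and 2.19, and at 16080627 and 16080624, with folds of 1.88 and 2.08. The next region, chr2:16081998-16082540, had folds of 1.87 and 2.19. The third, chr2:16083182-16084255, had summits at 16083636 and 16083665 with folds of 1.75 and 1.88. Hypoxia 3 alone called 16076617, with a fold of 1.84 over the lowest background of the stretch, and 16089924, with a fold of 1.59.

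**Figure D3:**
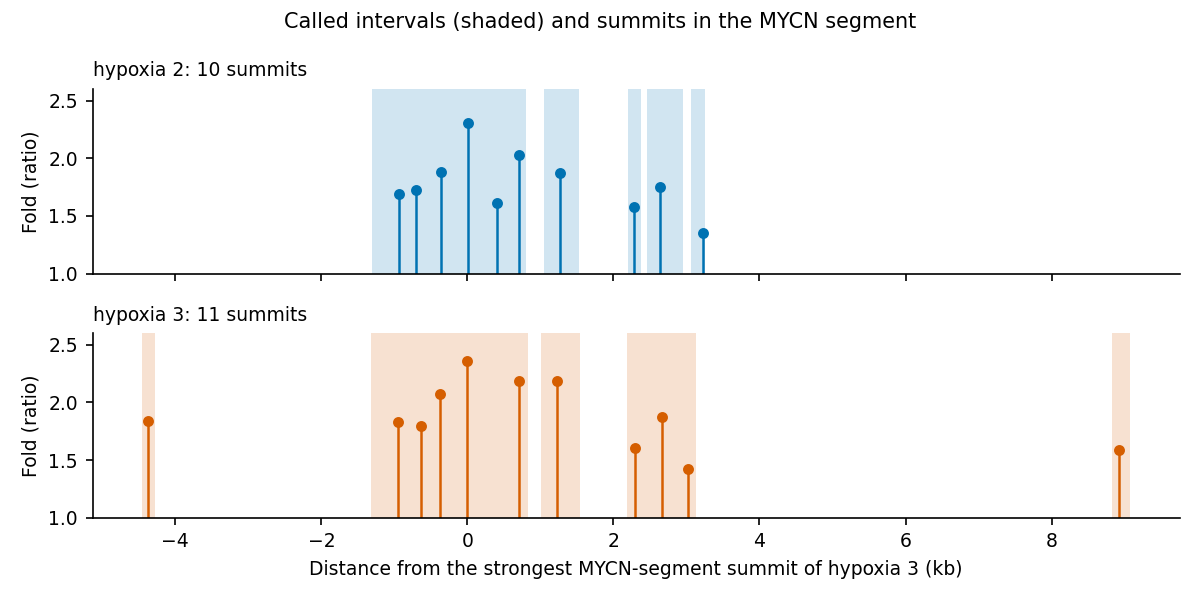
Called intervals (shaded) and summits (points, with the authors' fold as height; the axis starts at 1) in the MYCN segment in hypoxia 2 and hypoxia 3, against distance in kb from the strongest summit of hypoxia 3. The highest points, 2.3 and 2.36, stand at the same place, and hypoxia 3 has a further call on either side.

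Reads on amplified DNA reached a ceiling that the lists themselves show. If each position on each strand gave at most 1 read start, a summit could hold at most 2 times the extension, 310 reads in hypoxia 2 and 334 in hypoxia 3. The highest count in each of these lists was exactly that number, at 16379926 and 16379912, and 0 of the 16463 summits of the 6 lists exceeded it. Amplified summits of the window held 50.3% to 100% of it in hypoxia 2 (median 74.7%) and 43.7% to 100% in hypoxia 3 (median 60.5%), and 9 and 8 of them held at least 90%. The strongest MYCN summit held 93.2% and 96.7%, and under this ceiling its fold of 2.3 and 2.36 could not have passed 2.47 and 2.44. The gap site held 23.5% and 21.3%. The sources used here do not say whether duplicate reads were removed. Whether the same ceiling also limited the reads behind the local background was not tested.

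That ceiling limits what the MYCN and gap sites show beside each other. Over the local background the MYCN summit had 164 and 187 excess reads in hypoxia 2 and hypoxia 3, and the gap site 72 and 70.1. By p the MYCN summit ranked 666 of 6151 and 649 of 8039. By fold it ranked 6097 and 7907, but under the ceiling no fold at its background could have ranked far higher. The strength of the 2 sites was therefore not compared.

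Downstream of MYCN there were 42 amplified summits in hypoxia 2, 99 in hypoxia 3 and 1 in normoxia 3. Over the whole stretch the amplified folds had a median of 1.63 in hypoxia 2 (quartiles 1.44 and 1.85) and 1.52 in hypoxia 3 (1.43 and 1.73). Ordinary summits of the same lists had medians of 6.52 and 6.12, which no amplified summit of the window could have reached under the ceiling, where the highest possible fold was 3.31 and 3.78. The median −log10 q was 7.14 for amplified and 7.11 for ordinary summits in hypoxia 2, and 4.36 and 6.5 in hypoxia 3. Summits of 1 library are not replicates, so no test was made. At a −log10 q of at least 5, 32 of the 52 amplified summits remained in hypoxia 2 and 47 of the 110 in hypoxia 3, and 9 of 10 and 10 of 11 of those in the MYCN segment.

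The highest fold on amplified DNA was at chr2:16407557-16409340, the only region of the window called in both oxygen groups. Its summits were at 16408488 in hypoxia 2, with 309 reads and a fold of 2.62, and at 16408497 in hypoxia 3, with 320 reads and a fold of 2.94. The normoxia 3 call inside it was a 53 bp interval with 71 reads over a background of 36.1, a fold of 1.94, and a summit at 16408289, about 0.2 kb from those of hypoxia. Its −log10 q was 1.91. It was the only call of any normoxia library in the window.

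The next 4 downstream regions by the mean rank of their fold over hypoxia 2 and hypoxia 3 had no call in normoxia or hypoxia 1. With the region above, their best summits held 87.4% to 99.7% of the read ceiling, so their order has little meaning. The summits of chr2:16233344-16235633 had folds of 2.17 in hypoxia 2 and 2.46 in hypoxia 3, at 16234295 and 16234286. The highest folds at chr2:16124172-16125183 were 2.11 and 2.36. At chr2:16360879-16361864 they were 2.13 and 2.3, and at chr2:16121865-16123080 they were 2.02 and 2.2. The MYCN summit, at 2.3 and 2.36, thus lay among these values.

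Amplified calls fell in clumps. Joined where less than 10 kb apart, a distance chosen after the data were seen, the 79 regions gave 18 clumps, of which 11 held calls of both hypoxia 2 and hypoxia 3. The clump over MYCN was 13.5 kb long. The longest ran from 16400043 to 16427262, with 10 and 13 summits in hypoxia 2 and hypoxia 3, and includes the site of highest fold. The longest stretch without any call, 63.8 kb, lay between 16266199 and 16329979.

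Most amplified intervals of hypoxia 2 overlapped one of hypoxia 3, but not the reverse. Of the 36 amplified intervals of hypoxia 2, 33 (91.7%, exact 95% interval 77.5% to 98.2%) overlapped one of hypoxia 3, whose intervals covered 7.48% of the stretch. Of the 77 of hypoxia 3, 30 (39%, 28% to 50.8%) overlapped one of hypoxia 2, which covered 4.1%. The 95% bounds take each called interval as independent, though calls fell in clumps, and do not cover the spread between libraries. Of the 79 amplified regions, 29 (36.7%) were called in both. The 44% given above for the whole genome is not the same measure, as it also counts regions and calls of hypoxia 1. The 47 hypoxia 3 intervals without a hypoxia 2 call had a median fold of 1.47 (range 1.35 to 1.84), and the 30 with one a median of 1.86 (1.38 to 2.94).

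Within 150 bp of each other, 42 amplified summits of hypoxia 2 and hypoxia 3 could be paired. Their distance had a median of 26 bp and was at most 93 bp. Folds at the paired summits correlated across sites with Pearson's r = 0.91 and Spearman's rho = 0.89, and the local background behind them with 0.89 and 0.88. These sites share 2 libraries and 1 stretch of DNA and are not replicates, so this is a description. The fold was higher in hypoxia 3 at 35 of 42 pairs, with medians of 1.85 and 1.72, and the extensions of the lists differ.

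**Figure D4:**
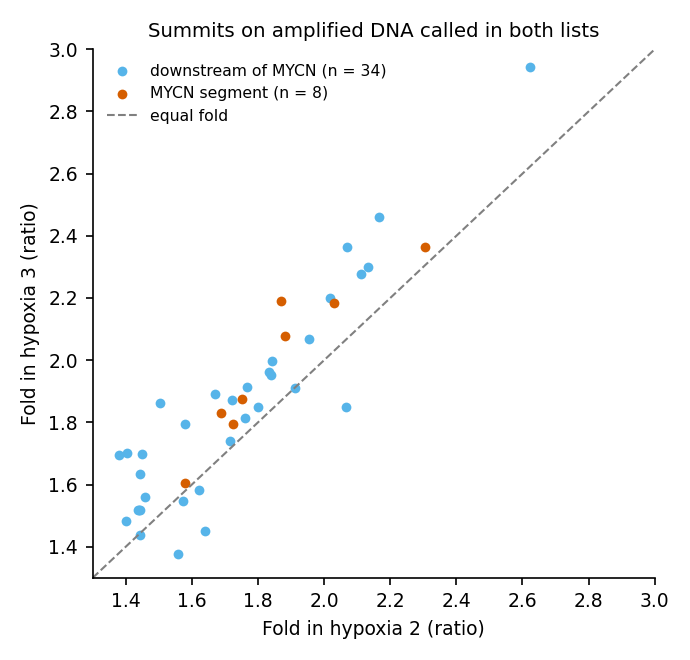
Authors' fold in hypoxia 3 against that in hypoxia 2 for the 42 paired summits on amplified DNA, 8 in the MYCN segment and 34 downstream; the dashed line marks equal folds. Most points lie above the line, and the point at 2.62 and 2.94 stands apart from the rest.

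The same ceiling bears on the lists with 1 or 0 amplified calls in the window. At the median background of the stretch, 151 times the genome-wide value, a call needed a fold of 1.77, 1.88 and 1.81 in normoxia 1, 2 and 3 and 1.68 in hypoxia 1, against 1.35 and 1.34 in hypoxia 2 and hypoxia 3. That equals 83, 81, 81 and 81 reads in the 4 short-extension lists, where the ceiling is 92, 94, 94 and 96 reads. At that background a call in these 4 lists had to fill 84.4% to 90.2% of the ceiling, against 60.6% and 53.9% in hypoxia 2 and hypoxia 3. At a lower background less was needed: the normoxia 3 call, at 123 times the genome-wide value, had 71 reads, 75.5% of its ceiling. The fold needed in hypoxia 1 was reached by 24 of 52 amplified summits in hypoxia 2 and 33 of 110 in hypoxia 3. The folds needed in normoxia 1, 2 and 3 were reached by 17, 12 and 16 of 52 and by 27, 17 and 25 of 110. Most amplified calls of hypoxia 2 and hypoxia 3 thus had folds below those needed in the other lists at this median background, and some did not. Whether a site would keep its fold at a shorter extension was not tested. Both lists with many amplified calls are hypoxia lists with a long extension, so oxygen and extension cannot be told apart for these calls.

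**Figure D5:**
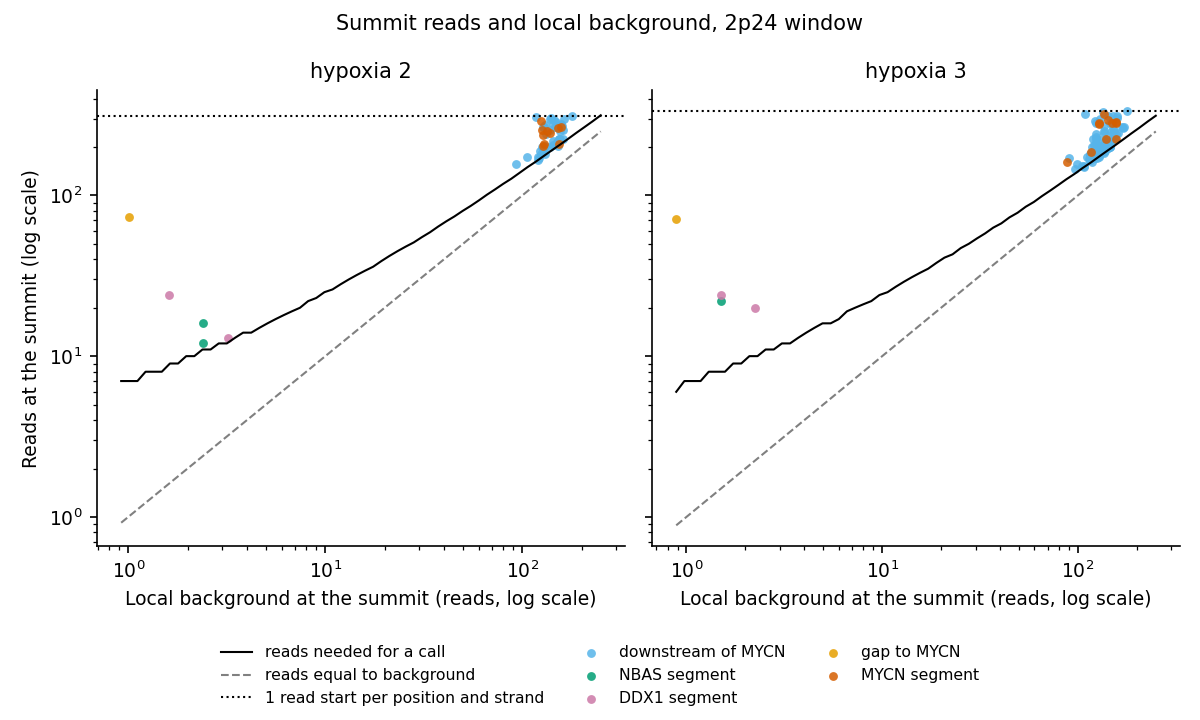
Reads at each window summit against its local background (reads, both axes log scale) in hypoxia 2 and hypoxia 3. The solid line is the number of reads needed for a call, the dashed line reads equal to background and the dotted line 1 read start per position and strand (310 and 334 reads); amplified summits lie between the solid and the dotted line.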

How the data were processed

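The deposited files are 6 narrowPeak lists, 1 per HIF-1α library; the input libraries enter through the background in them. Per the submitters' processing notes, the authors used BWA 0.7.17 and MACS2 with hg19; for MACS2 settings, nothing is stated in those notes. The deposited fold is a ratio of summit reads plus 1 to local background plus 1, −log10 p and −log10 q are deposited as the peak caller wrote them, and the deposited score is 10 times −log10 q cut to a whole number. Reads and background were solved as the whole number of reads whose fold and Poisson tail fit the deposited values within 0.001 in −log10 p. All 16463 summits (100%) gave a whole number, and 17 of them gave more than 1, none in the window. On 501 simulated summits, 100% of reads and of amplified states were recovered. These were made with the same formulas and with no background near the amplified threshold, so they check the arithmetic alone. The shortest interval of a list was taken as its extension. Positions are 1-based, and all contigs were used. Intervals sharing at least 1 bp were joined. Libraries were compared by two-sided exact permutation tests, and shares have exact (Clopper-Pearson) 95% intervals for counting error alone. The regions named were all ordinary ones, those of the NBAS, DDX1, gap and MYCN segments, and the 5 downstream called in most libraries, then by mean rank of fold. The members, segments and tests were chosen with earlier results of these data known. Alternatives were stricter q, intervals, other amplified thresholds, other overlaps, leaving out each library and a replicate block. Python 3.11.15, numpy 2.4.6, pandas 2.3.3, scipy 1.17.1 and matplotlib 3.10.9 were used.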

Additional observations from a re-analysis of the deposited data

How the results depend on the processing

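All differences between the groups kept their sign under the alternatives listed for the processing, whose p was never below 0.1, so these tests say nothing of stability. With 1 library left out the log2 difference in summits ran from 3.76 to 6.02, the share in the window from 0.352 to 0.96, its amplified part from 0.21 to 0.895 and its ordinary part from 0.0655 to 0.141 percentage points. With only the short-extension libraries, a comparison of hypoxia 1 with 3 normoxia libraries chosen after the data were seen and without a test, these were 1.99 on the log2 scale and −0.0109, −0.212 and 0.201 percentage points; the share in the window and its amplified part turned negative: hypoxia 1 has 0 amplified summits in the window and normoxia 3 has 1 among 157 summits. Hypoxia 2 intervals shared with hypoxia 3 fell from 91.7% to 72.2% under reciprocal overlap of at least 50%, a narrower definition. At 1 common −log10 p of 7.15 the fold needed on amplified DNA was 1.47 and 1.48 in hypoxia 2 and hypoxia 3 and 1.84 to 1.88 in the other lists. With same-numbered libraries as a replicate block the values equal the main ones by construction: 4.68 (exact sign-flip permutation p = 0.25) and 0.636, 0.526 and 0.111 percentage points (p = 0.25, 0.5 and 0.25); 3 pairs cannot go below 0.25. Across 9506 regions the correlation of deviations between same-numbered libraries was 0.00532 to 0.0714, and its highest value was with the same number for 4 of the 6, so numbers were not taken as pairs. Depth limits ordinary calls to sites with at least 5 to 7 reads.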
